A study of Mus musculus with 12 samples.

Results

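Sertoli cell transcripts were followed through 12 libraries of sorted mouse testis germ cells. The 10 genes described were the rows of the count table whose symbols are Clu, Ctsl, Defb19, Cst9, Amhr2, Cldn11, Sox9, Wt1, Amh and Gata4, out of 55291 genes in the table. The libraries came from FACS-sorted round spermatids (RS, cells that are haploid after meiosis) and spermatocytes at the MII stage (the second meiotic division), in 4 groups of 3 libraries. KO RS and KO MII libraries were from mice of genotype Pan2flox/-;Stra8-Cre, in which 1 Pan2 allele is deleted and the other is floxed and exposed to a Cre recombinase under the Stra8 promoter, active in germ cells around the start of meiosis. WT RS and WT MII libraries were from wildtype mice without a stated Cre or floxed allele. Pan2 encodes the catalytic subunit of a deadenylase, which shortens mRNA poly(A) tails, and libraries were made with Smart-seq2, which primes on those tails. Neither age nor strain, nor whether replicates came from separate animals, is given, so a p-value here covers the spread from library to library, which may be technical.

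Sertoli cells are the somatic nurse cells of the seminiferous tubule. They surround every germ cell, close the blood-testis barrier with tight junctions, engulf the residual cytoplasm of maturing spermatids, and secrete proteins into the fluid of the tubule. Their identity is set up by WT1, GATA4 and SOX9, and in fetal and immature testes they secrete AMH, whose gene is turned down at puberty. They are not the target of a sort for MII spermatocytes or round spermatids. In a bulk library, fewer cells of a type and less RNA per cell cannot be told apart.

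Library totals were between 13781370 and 38652066 counts and overlapped between the genotypes. Pan2 itself was at 22.6, 4.73 and 3.52 CPM (counts corrected for library size) across libraries labelled KO RS, against 9.93, 8.13 and 12.9 CPM in WT RS. It was at 5.57, 7.10 and 5.07 CPM in KO MII, against 12.9, 17.1 and 13.3 CPM in WT MII. The library labelled KO RS replicate 1 thus held more Pan2 than any WT library and went against its label, so RS results are also given with that library left out. With all libraries, Pan2 was not called lower in KO at either stage or averaged over both. Its log2 fold change was 0.003 in RS (edgeR quasi-likelihood test, adjusted p = 0.998) and -1.28 in MII (adjusted p = 0.227). Averaged over both stages it was -0.64 (adjusted p = 0.27). Transcripts of round spermatids (6 markers, 2201 to 4773 summed CPM over the 12 libraries) and of meiotic spermatocytes (7 markers, 1005 to 1677 CPM) were abundant in every library, whichever stage its label gave. Both sums differed by genotype without overlap in RS. The round spermatid sum was 4040 to 4773 CPM in KO RS, against 2423 to 3662 CPM in WT RS. The meiotic sum was 1005 to 1162 CPM in KO RS, against 1191 to 1645 CPM in WT RS. In MII the genotypes overlapped, at 3111 to 3591 CPM in KO and 2201 to 3112 CPM in WT for round spermatid markers. Meiotic markers there were at 1324 to 1595 CPM in KO and 1528 to 1677 CPM in WT. Elongating spermatid transcripts (6 markers) summed to 1943 to 2436 CPM in KO RS, against 4981 to 7421 CPM in WT RS, and to 1806 to 2874 CPM in KO MII, against 3885 to 5393 CPM in WT MII. The protamine and transition protein genes Prm1, Prm2, Tnp1 and Tnp2 were called lower in KO at both stages. The other markers of this list had higher means in KO. Odf1 was at 386 CPM in KO RS and 356 CPM in WT RS, and at 268 and 253 CPM in MII. Akap4 was at 855 and 705 CPM in RS and at 695 and 523 CPM in MII. It was called higher only when averaged over both stages, and not without the library labelled KO RS replicate 1. The part of these shifts in the Sertoli gene results was not tested.

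All libraries had counts of Sertoli cell genes, and the KO libraries had more than the WT libraries of the same stage. The 10 genes summed to 317, 48.0 and 72.4 CPM across libraries labelled KO RS replicates 1 to 3, against 5.89, 5.33 and 6.06 CPM in WT RS. In KO MII they summed to 418, 212 and 98.9 CPM, against 22.8, 38.6 and 44.0 CPM in WT MII. Neither pair of groups overlapped. The mean was 146 ± 149 CPM in KO RS and 5.76 ± 0.381 CPM in WT RS (SD, n = 3 each), a ratio of 25.3, or 10.5 without the library labelled KO RS replicate 1. It was 243 ± 162 CPM for KO MII and 35.1 ± 11.0 CPM for WT MII (SD, n = 3 each), a ratio of 6.93. The spread among KO libraries was wide, whereas the 3 WT RS libraries lay within 1 CPM of each other.

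**Figure D1:**
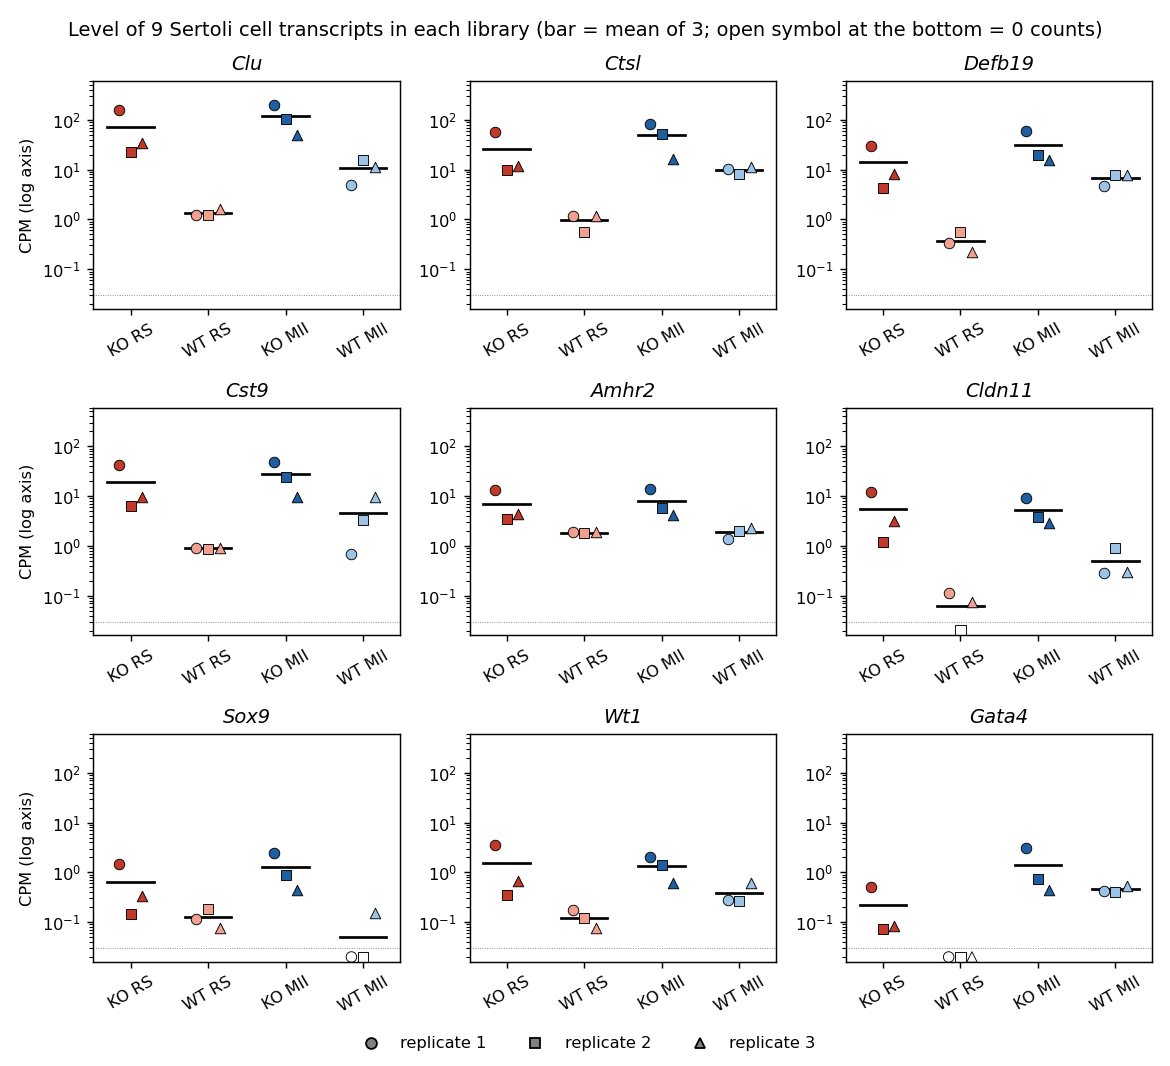
CPM on a log axis of the 9 detected Sertoli cell transcripts in each of the 12 libraries, by group, with replicates as circles, squares and triangles and the mean of 3 as a bar. Open symbols at the bottom are libraries with 0 counts, as for Gata4 in the 3 WT RS libraries, and Clu reaches 158 CPM in the library labelled KO RS replicate 1, against 1.20 to 1.65 CPM in WT RS.

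Of the 10 genes, 9 had counts and passed the filter on low counts, and Amh had 0 counts in all 12 libraries. A count of 0 allows up to 3 counts, which is 0.0786 to 0.21 CPM depending on the library (counting error only). Of the 9, Cldn11, Sox9, Wt1 and Gata4 had 10 counts or more in fewer than 3 of the 6 WT libraries and passed through the KO libraries. A gene that passes in that way was let in by its higher KO counts. The p-values of these genes and the counts of called genes below therefore describe the set and are no support for it.

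Secreted and lysosomal proteins gave the most counts. Clu, which encodes clusterin, a secreted chaperone of the tubule fluid, lies on chromosome 14 from 65968483 to 65981547 (plus strand, mm10, 14 merged exons). It was at 158, 22.1 and 34.4 CPM across libraries labelled KO RS, against 1.20, 1.24 and 1.65 CPM in WT RS. KO MII libraries had 200.4, 105 and 48.8 CPM of Clu, against 4.89, 15.8 and 11.4 CPM in WT MII. The groups did not overlap at either stage. The log2 fold change of Clu was 5.72 in RS (SE 1.01, edgeR quasi-likelihood test with Benjamini-Hochberg adjustment over all 21291 genes tested, adjusted p = 0.00917) and 3.44 in MII (SE 0.87, adjusted p = 0.0698), so the MII difference did not pass the threshold of 0.05. With the library labelled KO RS replicate 1 left out, the RS value of Clu was 4.38 (adjusted p = 0.00444).

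Ctsl encodes cathepsin L, a lysosomal protease that Sertoli cells secrete at defined stages and that many other cells make too. Its gene is on chromosome 13 from 64359337 to 64370890 (minus strand), and 1742 of its exon bases are shared with Gm47123 on the other strand and 395 with Gm49230, both listed at 0 counts throughout. Across libraries labelled KO RS its level was 56.1, 9.96 and 11.6 CPM, against 1.14, 0.558 and 1.20 CPM in WT RS. KO MII libraries had 81.5, 51.4 and 16.6 CPM of Ctsl, against 10.2, 8.10 and 11.4 CPM in WT MII. Again no KO library reached down to a WT library of its stage, with a log2 fold change of 4.75 in RS (SE 0.91, edgeR adjusted p = 0.0115) and 2.33 in MII (SE 0.76, adjusted p = 0.137). Ctsl was at 3.48 in RS without that KO RS library (adjusted p = 0.00129).

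Defb19 and Cst9 encode small secreted proteins, a beta-defensin of the antimicrobial family and a cystatin of the protease inhibitor family. Defb19 (chromosome 2, 152576086 to 152580312, minus strand, 2 exons) was at 29.9, 4.37 and 8.22 CPM across libraries labelled KO RS, against 0.343, 0.558 and 0.225 CPM in WT RS. In KO MII it was at 58.5, 19.4 and 15.4 CPM, against 4.61, 7.74 and 7.96 CPM in WT MII. Defb19 was the transcript with the most counts per exon length in KO RS (35.9 ± 34.9 CPM per kb), KO MII (79 ± 60.3 CPM per kb) and WT MII (17.2 ± 4.75 CPM per kb; SD, n = 3 each). Cst9 (chromosome 2, 148835147 to 148838738, plus strand, 3 exons) was at 42.6, 6.34 and 9.57 CPM across libraries labelled KO RS, against 0.916, 0.868 and 0.898 CPM in WT RS. In KO MII it was at 47.5, 24.6 and 9.72 CPM, against 0.699, 3.38 and 9.43 CPM in WT MII. The lowest KO MII library thus stood only just above the highest WT MII library for Cst9. The log2 fold changes in RS were 5.20 for Defb19 (SE 0.96, edgeR adjusted p = 0.00895) and 4.44 for Cst9 (SE 1.13, adjusted p = 0.0351). Without the library labelled KO RS replicate 1, Defb19 was at 4.02 (adjusted p = 0.000823) and Cst9 at 3.14, no longer called (adjusted p = 0.092). In MII they were 2.18 (adjusted p = 0.145) and 2.52 (adjusted p = 0.203), both short of the threshold. Cystatin and defensin genes lie in clusters of related genes, and the sources used here do not say how reads with several positions were counted.

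Cldn11, the junction gene of the set, encodes claudin 11, a tight junction protein of the blood-testis barrier (chromosome 3, 31149920 to 31164324, plus strand). The libraries labelled KO RS had 11.9, 1.22 and 3.22 CPM, against 0.114, 0 and 0.0748 CPM in WT RS. The KO MII levels were 9.35, 3.72 and 2.86 CPM, against 0.279, 0.89 and 0.301 CPM in WT MII. The WT RS values rest on 4, 0 and 2 counts. Cldn11 rose at both stages, by 6.33 in RS (SE 1.08, edgeR adjusted p = 0.00344) and by 3.41 in MII (SE 0.86, adjusted p = 0.0478) on the log2 scale. The MII call was lost at a similar value with the total count alone as the scale (3.40, adjusted p = 0.0574) and without the filter on low counts (3.43, adjusted p = 0.152). Leaving out the library labelled KO RS replicate 1 gave 5.01 in RS (adjusted p = 0.00066).

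Amhr2, the receptor gene, encodes the receptor that binds AMH and is also made by Leydig cells (chromosome 15, 102445367 to 102454633, plus strand). It was at 13.4, 3.51 and 4.32 CPM across libraries labelled KO RS, against 1.89, 1.80 and 1.87 CPM in WT RS. KO MII libraries had 13.6, 5.66 and 4.08 CPM, against 1.40, 1.96 and 2.26 CPM in WT MII. Amhr2 rose by 1.94 in RS (SE 0.47, edgeR adjusted p = 0.0126) and by 2.02 in MII (SE 0.48, adjusted p = 0.0278) on the log2 scale, with no overlap between groups. The RS value was 1.08 and no longer called without the library labelled KO RS replicate 1 (adjusted p = 0.115). Its WT level was the same within the spread at both stages (1.85 ± 0.0475 CPM in WT RS and 1.87 ± 0.438 CPM in WT MII; SD, n = 3 each), and the 95% interval of the RS over MII log2 fold change in WT ran from -1.08 to 0.99.

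The regulators of Sertoli cell identity were scarce. Sox9, a transcription factor gene of the male pathway (chromosome 11, 112782224 to 112787760, plus strand), was at 1.48, 0.143 and 0.339 CPM across libraries labelled KO RS, against 0.114, 0.186 and 0.0748 CPM in WT RS. For KO MII the levels were 2.44, 0.891 and 0.434 CPM, against 0, 0 and 0.151 CPM in WT MII. The groups overlapped in RS and did not in MII, where the WT level rests on 5 counts in 1 library. Sox9 rose in MII (log2 fold change 4.16, SE 1.04, edgeR adjusted p = 0.0325) and did not pass in RS (2.35, SE 0.92, adjusted p = 0.0964), where it was at 0.89 without the library labelled KO RS replicate 1 (adjusted p = 0.673).

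Wt1 encodes a zinc finger transcription factor that Sertoli cells keep through life (chromosome 2, 105126529 to 105173616, plus strand). It was at 3.54, 0.358 and 0.678 CPM across libraries labelled KO RS, against 0.172, 0.124 and 0.0748 CPM in WT RS. KO MII libraries had 2.03, 1.42 and 0.607 CPM, against 0.279, 0.267 and 0.603 CPM in WT MII, so the nearest KO and WT MII libraries were almost level. Wt1 rose by 3.56 in RS on the log2 scale (SE 0.78, edgeR adjusted p = 0.00653) and was at 1.74 in MII (SE 0.71, adjusted p = 0.176). Its RS value was 1.99 and no longer called when that KO RS library was left out (adjusted p = 0.114).

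Gata4, a zinc finger transcription factor gene that Leydig cells express as well (chromosome 14, 63198922 to 63271692, minus strand), had the lowest RS levels of the 9. It was at 0.514, 0.0716 and 0.0847 CPM across libraries labelled KO RS, from 16, 2 and 2 counts, against 0 counts in all 3 WT RS libraries. Set against 3 counts over the WT RS group, the summed KO RS counts put Gata4 at least 7.58-fold higher in KO RS (edgeR adjusted p = 0.0258). This bound, 2.92 on the log2 scale, leaves out the spread among KO RS libraries. The lower 95% limit of the edgeR fit was 2.34. Of the 20 KO RS counts, 16 came from the library labelled KO RS replicate 1, and the other 4 put the bound at 2.43-fold (adjusted p = 0.173). In MII it was at 3.09, 0.734 and 0.434 CPM in KO libraries, against 0.419, 0.401 and 0.543 CPM in WT libraries. These MII groups overlapped, with a log2 fold change of 1.61 (SE 0.79, adjusted p = 0.272).

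**Figure D2:**
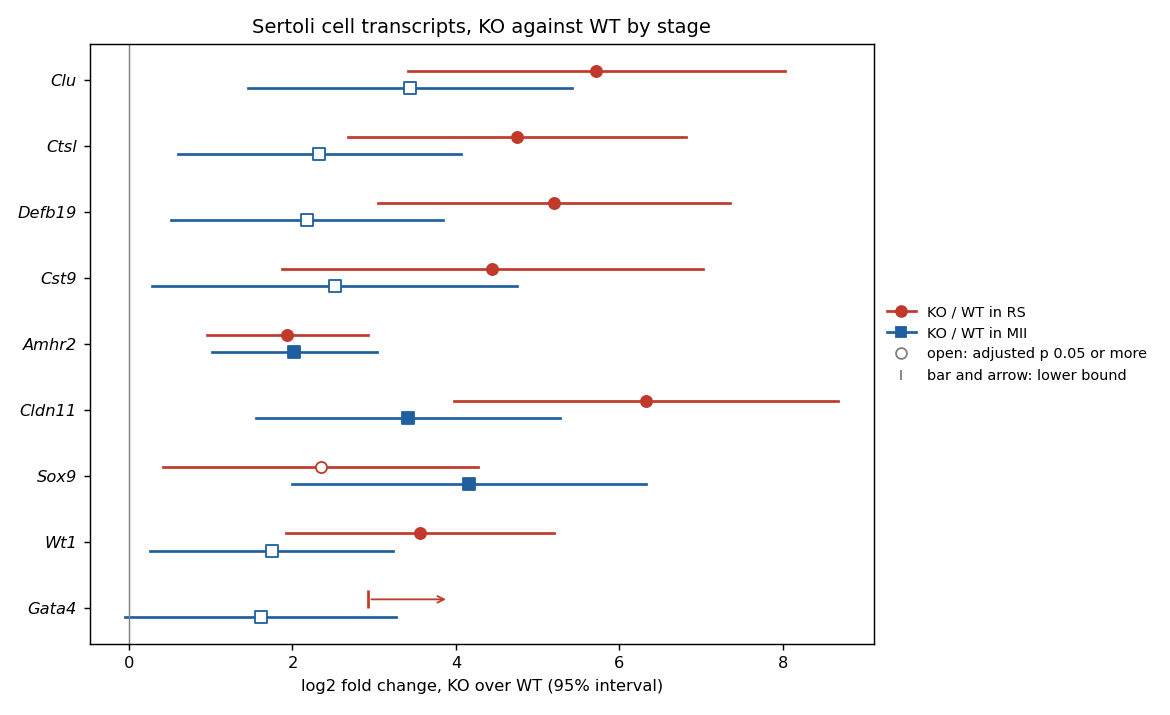
Log2 fold change of KO over WT for the 9 detected transcripts in RS (red circles) and MII (blue squares), with 95% intervals from the edgeR fit, filled where the adjusted p was under 0.05. For Gata4 in RS the bar with an arrow is a lower bound against 3 counts over the WT RS group, which leaves out the spread among KO RS libraries. All points lie above 0, and the interval of Gata4 in MII includes 0.

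Read as a set, 8 of the 10 genes were called higher and 0 lower in KO RS libraries, where 13.4% of all genes tested were called, 6.06% higher and 7.39% lower (edgeR, adjusted p under 0.05). The median log2 fold change of the 9 tested was 4.75, or 4.44 with Gata4 at its bound, beside -0.01 over all genes tested. Groups did not overlap for 8 of the 10, higher in KO RS, beside 17.8% of all genes tested higher and 18.3% lower without overlap. Leaving out the library labelled KO RS replicate 1 left 4 called, Clu, Ctsl, Defb19 and Cldn11, with Clu still higher in both other KO RS libraries than in any WT RS library. Leaving out WT RS replicate 1 left 5 called, and leaving out WT RS replicate 3 left 2, Cldn11 and Wt1. Both are among the genes that passed the filter on low counts through the KO libraries.

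In KO MII libraries 3 of the 10 genes were called higher (Cldn11, Sox9 and Amhr2) and 0 lower, beside 3.68% of all genes tested called, 1.83% higher and 1.86% lower. The median of the 9 was 2.33, beside -0.01 over all genes. The groups did not overlap for 8 of the 10, beside 11.7% of all genes tested higher and 10.4% lower without overlap. No gene of the set was called by edgeR when KO MII replicate 1 or 2, or any 1 WT MII library, was left out, and 8 of the 9 had an unadjusted p under 0.05 with all libraries. The count was 1 without WT RS replicate 2 or 3, 6 with DESeq2 and 6 leaving out the library labelled KO RS replicate 1. In the fits that each left out 1 library, the log2 fold changes of all 9 stayed above 0, and their ranges differed between genes. Amhr2 ran from 1.33 to 2.32 and Cldn11 from 2.71 to 4.14. Sox9 ran from 3.27 to 8.09, Cst9 from 1.84 to 3.64 and Gata4 from 0.34 to 2.03.

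Averaged over both stages, the KO effect passed the test for all 9 detected genes, each higher in KO, beside 22.1% of all genes tested called, 11.0% higher and 11.1% lower. The log2 change ranged over the genes with counts in every group from 1.98 for Amhr2 (SE 0.34, edgeR adjusted p = 0.00062) to 4.87 for Cldn11 (SE 0.69, adjusted p = 0.000529). Clu was at 4.58 (SE 0.67, adjusted p = 0.00199). All 9 stayed called in each of the 12 fits that left out 1 library, the library labelled KO RS replicate 1 included.

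Whether the KO effect differed between the stages was tested directly. By edgeR 0 of the 9 genes passed, beside 0.0047% of all genes tested, with 2 at an unadjusted p under 0.05 and 0 called by DESeq2. The difference of the log2 fold changes, RS minus MII, was above 0 for 7 of the 9 genes and below 0 for 2. It was 2.28 for Clu with a 95% interval from -0.53 to 5.09, and -0.09 for Amhr2 with an interval from -1.48 to 1.31. The 2 genes at an unadjusted p under 0.05 were Defb19 and Gata4, which had 0 counts in WT RS. Defb19 was at 3.02 with an interval from 0.325 to 5.72 (edgeR adjusted p = 0.735). These intervals are wide enough to hold a sizeable stage difference, which was not detectable with this spread.

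Between stages, WT RS libraries had less of these transcripts than WT MII libraries. The mean sum of the 10 genes was 5.76 CPM in WT RS and 35.1 CPM in WT MII, a ratio of 0.164. Defb19 fell by 4.15 (SE 0.96, edgeR adjusted p = 0.018) and Ctsl fell by 3.36 (SE 0.90, adjusted p = 0.0344) on the log2 scale in WT RS. Gata4 was at least 14.8-fold lower in WT RS, at 0 counts there against 33 in WT MII (spread among libraries left out of the bound, adjusted p = 0.00649). With these, 3 of the 10 were called lower and 0 higher, beside 16.4% of all genes tested called, 8.68% lower and 7.74% higher. Clu was at -3.00 (SE 0.96, adjusted p = 0.0689). In 6 of the 10 genes every WT RS library was below every WT MII library, beside 15.9% of all genes tested lower and 14.5% higher without overlap. The count of calls was 1 without WT RS replicate 1, 2 or 3 or WT MII replicate 3, and 5 without the library labelled KO RS replicate 1 or 2.

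In KO libraries the stages overlapped for all 10 genes, beside 17.8% of all genes tested higher and 19.2% lower in KO RS without overlap. The mean sum was 146 CPM in KO RS and 243 CPM in KO MII, a ratio of 0.599, or 0.248 with a KO RS mean of 60.2 CPM without the library labelled KO RS replicate 1. Only Gata4 was called, lower by 2.59 on the log2 scale in KO RS (SE 0.82, edgeR adjusted p = 0.0483), beside 12.3% of all genes tested called, 8.17% lower and 4.16% higher. Gata4 lost it when KO RS replicate 2 or 3, KO MII replicate 1 or 2, or WT MII replicate 1 or 3 was left out. Without the library labelled KO RS replicate 1, 3 genes were called, among them Ctsl (-2.21, adjusted p = 0.0114) and Defb19 (-2.31, adjusted p = 0.01). The KO and WT stage comparisons use different libraries, and the test of their difference is the stage difference of the KO effect given above.

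The share of Clu in the signal was close to constant among KO libraries although the size of the signal varied. Clu gave 49.7%, 45.9% and 47.5% of the summed CPM of the 10 genes across libraries labelled KO RS, against 20.4%, 23.3% and 27.2% in WT RS. In KO MII it gave 47.9%, 49.3% and 49.3%, against 21.5%, 41.1% and 25.8% in WT MII. Every KO library was thus above every WT library in the share of Clu, with a spread of at most 1.91 percentage points (SD, n = 3) within a KO group. Cst9 gave 13.3 ± 0.131% in KO RS and 15.5 ± 0.732% in WT RS, and 10.9 ± 0.949% in KO MII and 11.1 ± 9.40% in WT MII (SD, n = 3 each).

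Amhr2 held a larger part of the small signal of WT RS libraries. Its share was 5.83 ± 1.55% in KO RS and 32.2 ± 1.44% in WT RS, and 3.35 ± 0.734% in KO MII and 5.45 ± 0.595% in WT MII (SD, n = 3 each). Clu and Ctsl together gave 67.4%, 66.7% and 63.5% across libraries labelled KO RS, against 39.8%, 33.7% and 46.9% in WT RS. In MII the same pair gave 67.4%, 73.4% and 66.1% in KO libraries, against 66.3%, 62.1% and 51.7% in WT libraries. Defb19 gave 9.96 ± 1.21% in KO RS and 6.66 ± 3.46% in WT RS, and 12.9 ± 3.36% in KO MII and 19.5 ± 1.2% in WT MII (SD, n = 3 each). With 3 libraries against 3, an exact permutation test of 1 share cannot go below p = 0.1, and no test of these shares was made. No 2 libraries of a group were copies of each other, since each pair of replicates differed beyond sampling noise.

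**Figure D3:**
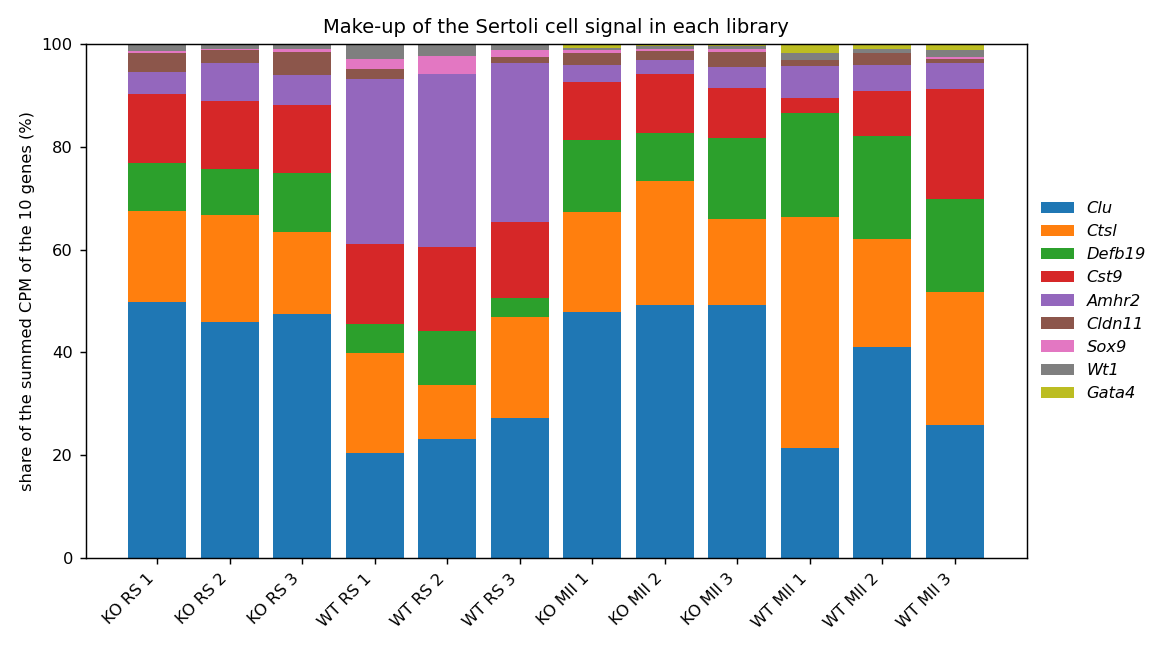
Share in percent of the summed CPM of the 10 genes held by each transcript in each of the 12 libraries (stacked bars, Amh at 0). Clu holds 45.9% to 49.7% in the 6 KO libraries, where Amhr2 runs from 2.66% to 7.31%, and the 3 WT RS libraries stand apart through Amhr2, at 30.9% to 33.7%.

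Per exon length, the 6 leading transcripts came in the same order in both KO groups. In KO RS libraries Defb19 led with 35.9 ± 34.9 CPM per kb, followed by Cst9 (28.4 ± 29.2), Clu (20.8 ± 21.8), Ctsl (3.99 ± 4.03), Amhr2 (3.53 ± 2.73) and Cldn11 (2.91 ± 3.04; SD, n = 3 each). In WT RS libraries Cst9 led with 1.30 ± 0.0347 CPM per kb, followed by Defb19 (0.953 ± 0.429), Amhr2 (0.924 ± 0.0237) and Clu (0.397 ± 0.0717; SD, n = 3 each). Ranges over libraries of neighbours in these KO RS and WT RS orders overlapped, except those of Amhr2 and Clu in WT RS. In KO MII the ranges of Clu (14.2 to 58.3 CPM per kb) and Ctsl (2.55 to 12.6 CPM per kb) did not overlap. The length counts all annotated exon bases of a gene, 3437 for Clu and 6489 for Ctsl. Which of these exons were in use was not tested, and the orders depend on it. Wt1, Sox9 and Gata4 were each under 0.4 CPM per kb on average in every group.

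Promoter sequence was at hand for only 4 of the 10 genes, and these 4 are shown for that reason. They rose in the comparison averaged over both stages, as did all 9 detected genes, so that rise does not set them apart. The windows run from 250 bases before to 50 after 1 start per gene in a RefSeq table, 5′ to 3′ on the gene's strand, on GRCm38.p6, the same build as mm10. For Ctsl that start lies inside the gene span given above, which comes from the count table. They are Amhr2 at chr15:102445117-102445416 (plus), Cst9 at chr2:148834897-148835196 (plus), Ctsl at chr13:64370471-64370770 (minus) and Cldn11 at chr3:31149670-31149969 (plus). Capitals mark matches on either strand to GATA letters (AGATAA or TGATAA), NR5A1 letters (AAGGTCA) and SOX letters (ACAATG or ACAATA), and no match overlapped another.
Amhr2: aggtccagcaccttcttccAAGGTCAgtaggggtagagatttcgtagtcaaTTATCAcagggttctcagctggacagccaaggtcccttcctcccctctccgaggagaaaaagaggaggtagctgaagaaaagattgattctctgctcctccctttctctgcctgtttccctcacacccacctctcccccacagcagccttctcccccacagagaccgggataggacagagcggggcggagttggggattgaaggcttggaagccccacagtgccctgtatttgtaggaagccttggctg
Cst9: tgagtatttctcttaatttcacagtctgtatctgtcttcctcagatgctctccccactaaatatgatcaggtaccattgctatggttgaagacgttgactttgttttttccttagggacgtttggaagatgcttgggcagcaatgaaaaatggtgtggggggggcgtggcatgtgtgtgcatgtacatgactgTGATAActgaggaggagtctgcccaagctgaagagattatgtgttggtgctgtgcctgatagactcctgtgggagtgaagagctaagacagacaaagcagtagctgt
Ctsl: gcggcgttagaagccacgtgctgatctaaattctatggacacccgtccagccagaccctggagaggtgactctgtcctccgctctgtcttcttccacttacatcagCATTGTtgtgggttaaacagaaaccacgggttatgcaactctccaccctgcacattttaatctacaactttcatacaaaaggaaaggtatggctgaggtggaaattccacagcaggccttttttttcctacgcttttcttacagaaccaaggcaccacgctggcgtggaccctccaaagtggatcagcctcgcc
Cldn11: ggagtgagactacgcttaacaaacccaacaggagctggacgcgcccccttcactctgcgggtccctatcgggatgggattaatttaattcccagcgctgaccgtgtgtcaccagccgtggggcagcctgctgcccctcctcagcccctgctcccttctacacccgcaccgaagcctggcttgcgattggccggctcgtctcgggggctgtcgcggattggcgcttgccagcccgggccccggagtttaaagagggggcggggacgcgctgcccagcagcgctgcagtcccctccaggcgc

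GATA factors, SOX9 and the nuclear receptor NR5A1 are regulators of Sertoli cell genes, and the letters were chosen after these sequences had been seen. GATA letters were in 2 of the 4 windows (Amhr2 and Cst9), and in 18.6% of all 32851 promoter windows of that length. The NR5A1 letters were in 1 window (Amhr2) and in 4.72% of all windows, and the SOX letters in 1 (Ctsl, on the other strand) and in 19.7%. The Cldn11 window held none of the letters. A match is a description of the letters and not a binding site.

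Most other genes with known roles in Sertoli cells moved in the same direction. The sum of 28 such genes overlapped between genotypes in RS, at 51.7 to 127 CPM in KO and 45.5 to 59.3 CPM in WT. The ratio of mean sums, KO over WT, was 1.63 in RS and 2.12 in MII. The largest part of the sum was Cdh2, with a mean of 21.5 CPM in KO RS and 25.2 CPM in WT RS. Of these 28 genes, 27 were tested, with a median log2 fold change of 1.39 in RS. In KO RS libraries 10 were called higher and 0 lower, beside 6.06% of all genes tested higher and 7.39% lower (edgeR, adjusted p under 0.05). In MII 1 was higher, Nr0b1, a nuclear receptor gene, and 0 lower (median 1.51), beside 1.83% of all genes tested higher and 1.86% lower. Nr0b1 was at 1.57 ± 1.13 CPM for KO MII and 0.0895 ± 0.0890 CPM for WT MII (SD, n = 3 each), with a log2 fold change of 3.94 (adjusted p = 0.0425). Averaged over both stages, 19 were higher and 0 lower, beside 11.0% of all genes tested higher and 11.1% lower. The RS count was 1 without the library labelled KO RS replicate 1. It was 1 without WT RS replicate 1 or 3, and 4 without WT RS replicate 2. The MII count was 0 without KO MII replicate 1 or 2, any 1 WT MII library or WT RS replicate 1, and at most 4 otherwise. The count averaged over both stages was 10 without the library labelled KO RS replicate 1. Some genes of this list also passed the filter on low counts through the KO libraries. Summed over WT RS and WT MII in turn, Rhox5 had 0 and 14 counts, Rhox8 4 and 18, Fshr 2 and 0, and Nr0b1 16 and 7. The calls and medians of this list therefore describe it and are no support for the set.

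In RS the called genes included the following. Cst12, another cystatin gene, averaged 11.8 ± 11.8 CPM in KO RS and 0.294 ± 0.0742 CPM in WT RS (SD, n = 3 each), with a log2 fold change of 5.29 (edgeR adjusted p = 0.0292). Gstm6, a glutathione transferase gene, was at 4.63 (adjusted p = 0.0284), Rhox8, a homeobox gene, at 5.02 (adjusted p = 0.0254), Aard at 3.92 (adjusted p = 0.0278) and Tsx at 3.43 (adjusted p = 0.0481). Rhox5, a homeobox gene of the same cluster, had 50, 1 and 2 counts across libraries labelled KO RS and 0 in WT RS, at least 20.1-fold higher over the group (adjusted p = 0.0158). With the first of these libraries left out it had 3 counts and was not called (adjusted p = 0.238). Such bounds leave out the spread among KO RS libraries. For Rhox5 the bound was 4.33 on the log2 scale and the lower 95% limit of the edgeR fit 3.29. Kitl, the ligand of the germ cell receptor KIT, had 18, 0 and 14 counts across libraries labelled KO RS and 0 in WT RS, at least 12.1-fold higher over the group (adjusted p = 0.00664). The groups thus overlapped at 0, and Kitl was the 1 gene of this list still called without the library labelled KO RS replicate 1 (at least 8.51-fold, adjusted p = 0.0282).

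Genes that other testis cells share were among both the called and the uncalled. Vim (intermediate filament vimentin) rose by 1.81 (edgeR adjusted p = 0.0234), Nr5a1 by 2.25 (adjusted p = 0.0453) and Gata1 by 1.22 (adjusted p = 0.0407) on the log2 scale. Inha, Inhbb, Defb36, Tubb3, Etv5, Fshr, Mro and Dmrt1 were called only in the average over both stages, where Inha, the inhibin alpha subunit, was at 1.48 (adjusted p = 0.00975) and Dmrt1 at 0.87 (adjusted p = 0.0275). Dhh, Trf, Espn, Krt18, Cdh2, Gja1 and Gdnf were called in no KO comparison.

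Markers of the other somatic cells of the testis were measured in the same libraries. Leydig cells make testosterone between the tubules, and their 8 markers summed to 1.36 to 9.78 CPM across libraries labelled KO RS, against 0.93 to 1.77 CPM in WT RS. In KO MII the Leydig sum was 104 to 205 CPM, against 26.1 to 46.1 CPM in WT MII. Of these 8, 3 were called higher in KO RS and 3 in KO MII, and 0 lower, with 1 and 4 higher without the library labelled KO RS replicate 1. Over all genes tested with all libraries, 6.06% were called higher in KO RS and 1.83% in KO MII. Hsd3b1, Insl3 and Hsd17b3 had 0 counts in WT RS. The part of Leydig cells in the Amhr2, Gata4 and Nr5a1 results was not tested.

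The stage ratios of the Leydig and Sertoli sums were as follows, and their difference was not tested. The mean Leydig sum in RS was 0.0424 of that in MII in KO and 0.0406 in WT, while for the 10 Sertoli genes the ratio was 0.599 in KO and 0.164 in WT. Without the library labelled KO RS replicate 1 the KO ratios were 0.0401 for Leydig and 0.248 for Sertoli genes. Peritubular myoid cells, which wrap the tubule, had 7 markers summing to 176 to 222 CPM in KO RS, against 139 to 281 CPM in WT RS, and to 139 to 168 CPM in KO MII, against 160 to 248 CPM in WT MII. Most of that sum was Actg2, with a mean of 192 CPM in KO RS and 196 CPM in WT RS. Acta2 and Myh11, the smooth muscle actin and myosin genes, were called lower in KO MII, while Myl9, a myosin light chain gene, was called higher in KO RS.

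Endothelial and immune markers had sums that overlapped between genotypes. The 6 endothelial markers summed to 9.70 to 12.7 CPM in KO RS, against 11.6 to 13 CPM in WT RS, and to 7.63 to 8.85 CPM in KO MII, against 7.20 to 9.88 CPM in WT MII. The 7 macrophage and leukocyte markers summed to 8.30 to 12.4 CPM in KO RS, against 7.11 to 9.27 CPM in WT RS, and to 5.99 to 20.1 CPM in KO MII, against 5.73 to 7.84 CPM in WT MII. C1qa, a complement gene of macrophages, had 0 counts in WT MII and was called higher in KO MII. Of the 6 macrophage and leukocyte genes tested, Ptprc, C1qa and Csf1r were called higher in KO averaged over both stages, beside 11.0% of all genes tested. The median log2 fold change of the 6 was 1.19 in RS and 1.52 in MII. The part of these cells in the Sertoli gene results was not tested.

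**Figure D4:**
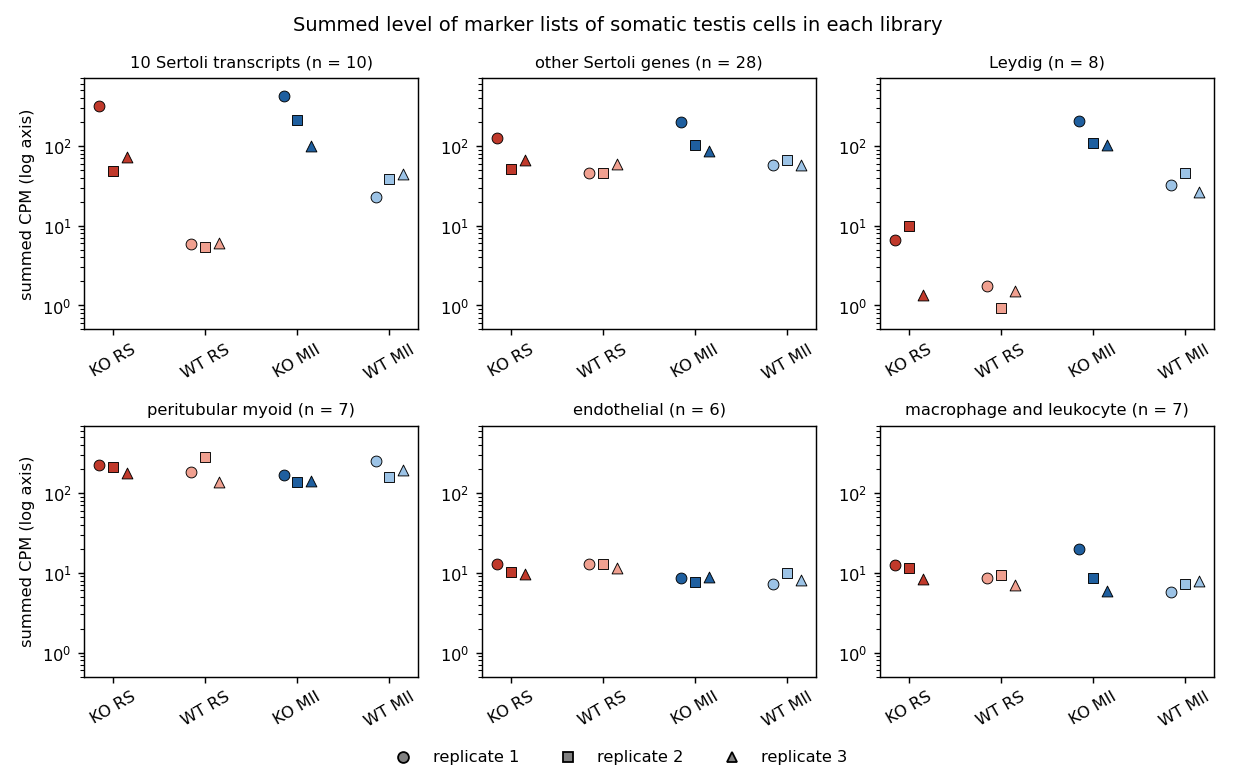
Summed CPM on a log axis of 6 marker lists of somatic testis cells in each library, by group, with replicates as circles, squares and triangles. The 10 Sertoli transcripts separate KO from WT at both stages (48.0 to 317 against 5.33 to 6.06 CPM in RS), Leydig markers separate them in MII, and myoid, endothelial and immune sums overlap. The sum of the 28 other Sertoli genes overlaps in RS (51.7 to 127 against 45.5 to 59.3 CPM) and separates in MII (86.0 to 198 against 57.0 to 67.2 CPM).

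Genes with profiles like the Sertoli mean were sought among 8359 genes at 5 CPM or more on average. Likeness was the root mean square difference, over the 12 libraries, between a gene's log2 CPM and the mean log2 CPM of the 9 detected genes, each centred on its own mean. The nearest 8 were Ldhb (0.507), Cpe (0.87), Cst12 (0.971), Sparc (1.02), Cd47 (1.14), Hmgb2 (1.16), Ndufa4 (1.17) and Slc25a5 (1.19), beside a median of 1.80 over the genes compared. The 9 genes themselves, which make up the mean, lay between 0.593 (Wt1) and 1.05 (Sox9).

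Ldhb, the lactate dehydrogenase subunit of somatic cells, was at 2.03 to 11.2 CPM in KO RS, against 0.229 to 0.412 CPM in WT RS, and at 6.33 to 21.5 CPM in KO MII, against 2.10 to 3.53 CPM in WT MII. Cpe, which encodes carboxypeptidase E, was at 2.94 to 12.9 CPM in KO RS, against 0.449 to 0.858 CPM in WT RS. In MII its groups overlapped only slightly, at 9.51 to 22.8 CPM in KO and 6.23 to 9.78 CPM in WT. Sparc, a matrix glycoprotein gene, was at 3.83 to 19.3 CPM in KO RS, against 0.973 to 1.67 CPM in WT RS. These profiles were chosen for their likeness over the same 12 libraries, so the values are a description.

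**Figure D5:**
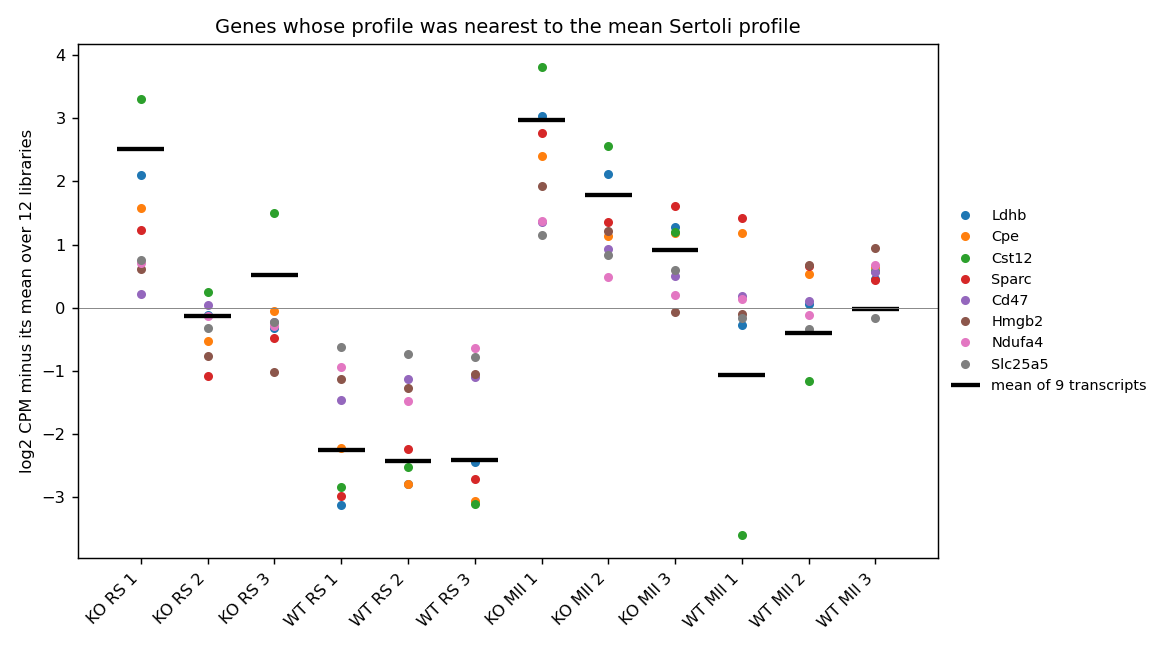
Log2 CPM minus its mean over the 12 libraries for the 8 genes nearest to the Sertoli profile (points) and the mean of the 9 detected Sertoli transcripts (black bars), by library. The bars are highest in KO MII replicate 1 (2.96) and the library labelled KO RS replicate 1 (2.52) and lowest in the 3 WT RS libraries (-2.43 to -2.24).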

How the data were processed

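Per the labels' protocols, RNA of FACS-sorted cells was reverse transcribed with oligo(dT) by Smart-seq2, preamplified and sequenced as paired reads. The deposited table holds raw counts, as whole numbers, for each gene and library. The submitters' processing notes name featureCounts 2.0.2, STAR 2.7.10a, Trim Galore 0.6.7, DESeq2 and mm10, without settings. Strand and the treatment of multi-mapped reads are not stated there.

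Of 55291 genes, 37839 had a count, and filterByExpr of edgeR with minimum count 10 and minimum total 15 kept 21291. CPM uses TMM-scaled library sizes, and log2 CPM a prior count of 2. The test was edgeR 4.0.16's quasi-likelihood F test (R 4.3.3, robust), 1 mean per group, 8 residual degrees of freedom, Benjamini-Hochberg adjustment over all genes tested and a threshold of 0.05. SEs were taken as log2 fold change over root F. The test was checked on simulated counts. Counts of 0 were set against 3 counts, with the summed count of the other group taken as exact, so a fold given as "at least" leaves out the spread among libraries. DESeq2 1.42.0 was an alternative.

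The genes and lists were chosen with earlier results of these data known. Named were the 10 genes, Pan2, other Sertoli genes called in a KO comparison, and the 8 nearest profiles without predicted or clone names. A few marker genes of other cell types were named after their values were seen. A result on 1 gene of the other Sertoli list is not reported here.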

Additional observations from a re-analysis of the deposited data

How the results depend on the processing

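The signs of the KO effects of the 9 detected genes, in each stage and averaged, were kept under every alternative that tested them. The average over both stages lost no call in 161 refits of single genes (Gata4 was not tested with counts halved, a setting chosen after seeing the data). Counts of called genes moved more. In MII the set had 6 calls with DESeq2. For WT RS against WT MII it had 5 with DESeq2 and 5 with only the libraries compared. For KO RS against KO MII it had 0 with only the libraries compared and 0 with counts halved. Over all genes, the MII count of 784 was 1440 without the filter, 1519 with DESeq2 and 403 with only the MII libraries. The stage difference of the KO effect, 1 gene, gave 65 without the filter, 19 with DESeq2 and 3 with the replicate block. KO RS against KO MII (2625) gave 4451 and WT RS against WT MII (3497) gave 2108 with only the libraries compared. The causes were not tested.

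Leaving out 1 library at a time, the calls in the set ranged from 2 to 8 in RS, 0 to 6 in MII, 9 to 9 averaged over both stages, 0 to 0 for the difference, 0 to 3 for KO RS against KO MII and 1 to 5 for WT RS against WT MII. Over all genes the ranges were 1080 to 3573, 147 to 976, 3248 to 4995, 0 to 2, 1096 to 3286 and 1776 to 3980. With the replicate number as a block the set had 7 calls in RS (Cst9 lost, adjusted p = 0.0616), 3 in MII and 4 for WT RS against WT MII. The deviations of same-numbered libraries correlated at -0.203 to 0.155 in the comparisons other than KO RS against KO MII, where they were at 0.287, 0.0836 and 0.155. In no comparison did all 3 exceed 0.1, so the numbers were not taken to pair the samples.

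Signs turned for log2 fold changes near 0 between stages, none of them called after turning. For KO RS over KO MII, Cldn11 (0.05) was at -0.0007 with the total count alone and -0.17 with the replicate block, and Wt1 (0.18) at -0.16 with the replicate block. Over the fits that each left out 1 library, Cldn11 ranged from -1.26 to 0.74, Wt1 from -1.39 to 0.66, Cst9 from -1.78 to 0.20 and Amhr2 from -0.99 to 0.56. The lowest value of each came from leaving out the library labelled KO RS replicate 1, and the highest of Cst9 and Amhr2 without KO MII replicate 1. For WT RS over WT MII, Amhr2 was at 0.0135 without the filter and ranged from -0.18 to 0.12 with 1 library left out. Its stage difference of the KO effect ranged from -0.95 to 0.59.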

Other observations

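Of the 102 values above 0 that the 10 genes had in the 12 libraries, 90 (88.2%) were even numbers. Over all genes the share of even numbers among values above 0 was between 61.4% and 77.4% per library. Whether both reads of a pair were counted separately was not tested. With all counts halved and rounded, a setting chosen after seeing the data, 7 of the 10 genes were called in KO RS and 3 in KO MII.

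Transcripts of spermatogonia, the dividing germ cells at the base of the tubule, had 7 markers that summed to 38.5 to 50.3 CPM in KO RS, against 21.8 to 34.9 CPM in WT RS. In KO MII they summed to 32.4 to 48.1 CPM, against 24.2 to 32.1 CPM in WT MII. Most of that sum was Gfra1, with a mean of 32.6 CPM in KO RS and 19.4 CPM in WT RS, and of 22.7 and 17.5 CPM in MII. Uchl1 had a lower mean in KO in RS (3.67 against 4.06 CPM) and Nanos3 in MII (1.21 against 1.97 CPM). The other markers had higher means in KO, some by little, as Kit in RS (5.47 against 5.24 CPM). Only Gfra1 and Stra8 were called in RS, and only Stra8 in MII. Stra8, the gene whose promoter drives the Cre, was called higher in KO at both stages, with a mean of 0.836 CPM in KO RS and 0 CPM in WT RS, and of 1.98 CPM for KO MII and 0.0397 CPM for WT MII. The MII call was lost without KO MII replicate 1 or any 1 WT MII library.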
